A study of Homo sapiens with 8 samples.

Results

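CCT, also called TRiC, is the chaperonin of the cytosol, and its subunits are encoded by 8 genes, TCP1, CCT2, CCT3, CCT4, CCT5, CCT6A, CCT7 and CCT8. Their rows were taken from a table of 58302 genes by matching each Ensembl identifier to its GENCODE 44 symbol, and all 8 were found and passed the filter on low counts. The table came from A549 cells, an established line of human lung adenocarcinoma epithelium, transfected with a scramble siRNA (libraries labelled siCTRL, n = 4) or with an siRNA against APE1, the base excision repair endonuclease encoded by APEX1 (libraries labelled siAPEX1, n = 4). RNA was collected 72 h after the transient transfection, and no other agent differed between the groups. The library kit was made for small RNAs and was adapted so that longer RNAs were also read. The samples of a group are replicates of 1 cell line that no label ties to separate cultures, though the paper calls them biological replicas. The p-values below therefore set the difference between groups against the spread between these libraries only.

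CCT is a pair of stacked rings, each holding 1 copy of every subunit, that closes over an unfolded protein and releases it after ATP hydrolysis. Actin and tubulin depend on it for folding, as do several proteins built on WD40 repeats, and the hexameric cofactor prefoldin brings such clients to it. Because every ring takes each subunit once, the complex is usually pictured as needing its subunits in equal amounts, although transcripts need not be in that proportion. The subunits are commonly divided into a side of the ring that binds ATP tightly (TCP1, CCT2, CCT4, CCT5) and a side that binds it weakly (CCT3, CCT6A, CCT7, CCT8).

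Between 1348386 and 1949886 counts were assigned to genes per library, and all siAPEX1 libraries were smaller than all siCTRL libraries. APEX1 had 51, 61, 64 and 47 counts in the libraries labelled siCTRL and 21150, 19470, 27916 and 20767 in those labelled siAPEX1. If these counts were APEX1 mRNA, they would be the reverse of a knockdown. Counts per gene do not tell APEX1 mRNA from short RNAs of APEX1 sequence, and which was read was not tested. Every direction below is therefore that of the libraries as labelled. Nuclear protein-coding genes, APEX1 left out, took 15.4% ± 0.296 (SD, n = 4) of the counts in siCTRL and 12.2% ± 0.323 in siAPEX1. Of 10 A549 markers, 9 were tested and 7 passed the test (31.7% of all tested genes did), 5 lower (among them KRT8, KRT18 and KRT19) and 2 higher (AKR1C2, AKR1B10), and their summed level was 1466 to 1634 CPM (counts scaled to a common library size) in siCTRL and 1299 to 1393 in siAPEX1. EPCAM was at 0 to 9 counts. The 9 markers of leukocytes, endothelium, fibroblasts and hepatocytes summed to 7 to 17 counts in siCTRL and 3 to 6 in siAPEX1, with CD3E and PECAM1 at 0 in every library. The part of these markers in the results on CCT was not tested, and in bulk RNA fewer expressing cells and less RNA per cell cannot be told apart.

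CCT7 was lower in siAPEX1, and no other CCT subunit passed the test. Levels are given as CPM on library sizes scaled by TMM, and differences were tested over 5368 genes with edgeR's quasi-likelihood test, a gene being called at a Benjamini-Hochberg adjusted p of at most 0.05. Of the 8 subunits 1 was called, against 31.7% of all tested genes in either direction, 15.8% of all tested genes called lower and 15.9% of nuclear protein-coding genes called lower. A count of 1 in 8 is thus near the background. At an unadjusted p under 0.05 there were 2 of the 8 subunits, CCT7 and CCT4, against 2203 of the 5368 tested genes. No subunit also reached an absolute log2 fold change of 1 by edgeR or by DESeq2, a pair of conditions met by 9.28% of all tested genes. The median log2 fold change of the 8 subunits was -0.15, compared with -0.0031 over all tested genes and -0.03 over the nuclear protein-coding ones, and the subunits ran from -0.91 for CCT7 to 0.26 for CCT5.

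**Figure D1:**
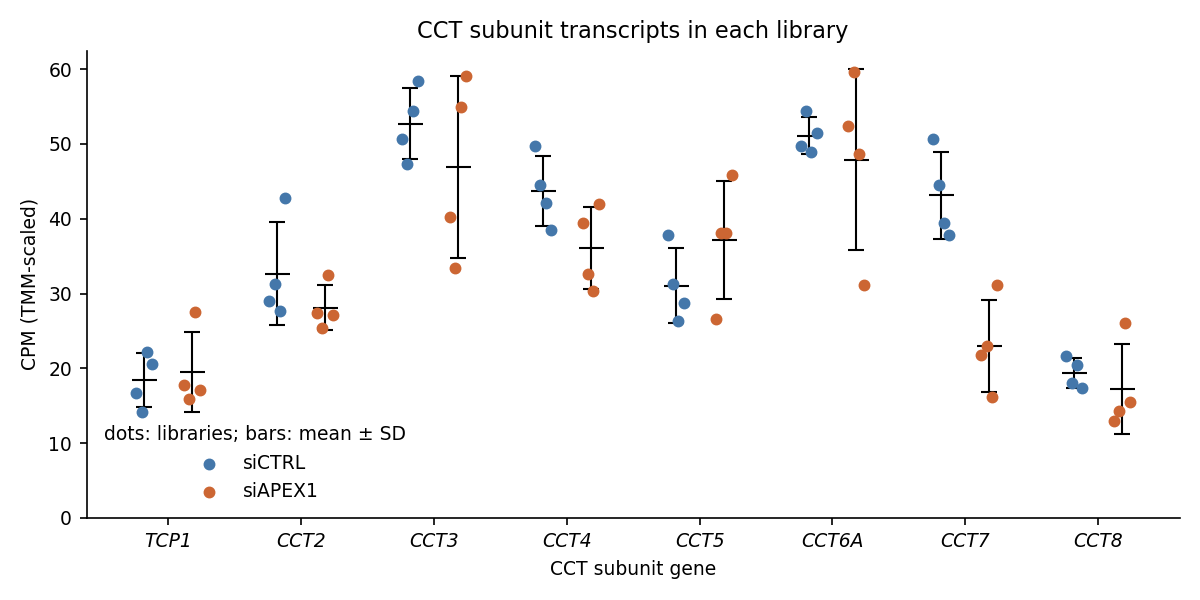
Level of each CCT subunit transcript, in TMM-scaled CPM, in the 4 siCTRL (blue) and 4 siAPEX1 (orange) libraries, with dots for libraries and bars for the mean ± SD. CCT7 is the only subunit whose groups do not overlap, with siCTRL at 37.9 to 50.7 CPM and siAPEX1 at 16.2 to 31.1.

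CCT7 (ENSG00000135624, chr2:73233420-73253021, plus strand, GRCh38) encodes the eta subunit, on the side of the ring that binds ATP weakly. It had 103, 94, 87 and 70 counts in siCTRL replicates 1 to 4 and 27, 29, 23 and 40 in siAPEX1 replicates 1 to 4. In CPM these were 50.7, 44.5, 39.4 and 37.9 in siCTRL and 21.7, 23.0, 16.2 and 31.1 in siAPEX1, so the highest siAPEX1 library lay below the lowest siCTRL library. Such a separation, with every siAPEX1 library below every siCTRL library, was found for 14.9% of all tested genes and for 1 of the 8 subunits. The mean fell from 43.1 ± 5.77 to 23.0 ± 6.13 CPM (SD, n = 4), which is 0.531 of the siCTRL level. The log2 fold change was -0.91 (SE 0.161, 95% interval -1.24 to -0.59, edgeR adjusted p = 1.70e-05), which ranked 379 of the 5368 tested genes counted from the lowest. Without siAPEX1 replicate 3, the library with the lowest CCT7 level, it was -0.74 (edgeR adjusted p = 6.91e-04).

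The other subunits of the same side of the ring kept overlapping groups. CCT3 (ENSG00000163468, chr1:156308968-156367873, minus strand), the gamma subunit, had 50.7, 47.4, 54.4 and 58.5 CPM in siCTRL and 40.3, 33.4, 55.0 and 59.0 in siAPEX1. Replicates 1 and 2 of siAPEX1 lay below every siCTRL library, whereas replicates 3 and 4 lay among or above them. The means were 52.7 ± 4.78 and 46.9 ± 12.1 CPM, and the log2 fold change was -0.16 (SE 0.138, 95% interval -0.43 to 0.12, edgeR adjusted p = 0.419), or -0.0013 without siAPEX1 replicate 2 and -0.25 without replicate 4. CCT6A (ENSG00000146731, chr7:56051685-56063989, plus strand), the zeta subunit made in most tissues, had 49.7, 54.5, 48.9 and 51.4 CPM in siCTRL and 52.3, 59.6, 48.6 and 31.1 in siAPEX1. The siCTRL libraries were close together, and siAPEX1 spread from its lowest, replicate 4, to above all of siCTRL. Its means were 51.1 ± 2.46 and 47.9 ± 12.1 CPM, with a log2 fold change of -0.10 (SE 0.136, 95% interval -0.37 to 0.18, edgeR adjusted p = 0.641), and without siAPEX1 replicate 4 the value was 0.09. CCT8 (ENSG00000156261, chr21:29055805-29073797, minus strand), the theta subunit, had 21.6, 18.0, 20.4 and 17.3 CPM in siCTRL and 12.9, 14.3, 26.1 and 15.5 in siAPEX1. Replicates 1, 2 and 4 of siAPEX1 were below all siCTRL libraries and replicate 3 was above them all. Its log2 fold change was -0.15 (SE 0.200, 95% interval -0.55 to 0.25, edgeR adjusted p = 0.613), and the means were 19.3 ± 2.02 and 17.2 ± 6.02 CPM. Without siAPEX1 replicate 3 it was -0.41, and without replicate 1 it was -0.01.

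On the side that binds ATP tightly, no subunit was called and the signs were mixed. CCT4 (ENSG00000115484, chr2:61868085-61888671, minus strand), the delta subunit, had 49.7, 44.5, 42.1 and 38.4 CPM in siCTRL and 39.5, 32.6, 30.3 and 42.0 in siAPEX1. Replicates 2 and 3 of siAPEX1 were below all of siCTRL, and replicates 1 and 4 lay within its range. The means were 43.7 ± 4.71 and 36.1 ± 5.52 CPM, and the log2 fold change of -0.28 (SE 0.137, 95% interval -0.56 to -0.0059) had an edgeR adjusted p of 0.114. When the test was restricted to genes reaching 10 counts in all libraries, CCT4 passed at -0.37 (edgeR adjusted p = 0.0307). CCT5 (ENSG00000150753, chr5:10249929-10266389, plus strand), the epsilon subunit, in which mutations cause a hereditary sensory neuropathy, had 37.9, 31.3, 26.3 and 28.7 CPM in siCTRL and 26.6, 38.1, 38.1 and 45.8 in siAPEX1. Replicates 2, 3 and 4 of siAPEX1 were above every siCTRL library and replicate 1 was near the lowest of them. The means were 31.0 ± 4.99 and 37.2 ± 7.94 CPM, and the log2 fold change was 0.26 (SE 0.154, 95% interval -0.045 to 0.57, edgeR adjusted p = 0.196). Without siAPEX1 replicate 1 CCT5 passed the test, at 0.42 (edgeR adjusted p = 0.0417).

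CCT2 (ENSG00000166226, chr12:69585426-69601570, plus strand), the beta subunit, which has also been described as an autophagy receptor for protein aggregates, had 29.0, 31.3, 27.6 and 42.8 CPM in siCTRL and 27.4, 25.4, 32.4 and 27.2 in siAPEX1. One siCTRL library, replicate 4, stood above the rest, and the other libraries of both groups overlapped. The means were 32.7 ± 6.89 and 28.1 ± 3.02 CPM, with a log2 fold change of -0.20 (SE 0.158, 95% interval -0.52 to 0.12, edgeR adjusted p = 0.369), or -0.05 without that library. TCP1 (ENSG00000120438, chr6:159778498-159789703, minus strand), the alpha subunit that gave the family its name, had 16.7, 14.2, 22.2 and 20.6 CPM in siCTRL and 17.7, 15.9, 27.5 and 17.1 in siAPEX1. Replicate 3 of siAPEX1 was above every other library, and the rest overlapped. The means were 18.4 ± 3.63 and 19.5 ± 5.35 CPM, and the log2 fold change was 0.10 (SE 0.198, 95% interval -0.30 to 0.50, edgeR adjusted p = 0.741), which became -0.09 without that library. TCP1 rested on 20 to 49 counts per library and CCT8 on 16 to 45, so their intervals were the widest of the 8.

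Of the 7 subunits that were not called, 2 changed sign and 5 changed only their call with the scaling of the libraries. With library sizes alone the median log2 fold change of all tested genes moved to -0.34, the share of calls that were higher fell from 50.3% to 15.3%, and 6 subunits passed the test as lower (CCT2, CCT3, CCT4, CCT6A, CCT7 and CCT8), while TCP1 and CCT5 changed sign to -0.23 and -0.07. Taken relative to the median of all genes, CCT7 was at -0.91 both with TMM factors and with library sizes alone. A change of scaling moves all genes by nearly the same amount, so this would hold for any gene and is no test of CCT7. With TMM factors from nuclear protein-coding genes alone, CCT7 was at -0.87 (edgeR adjusted p = 4.07e-05), it was again the only subunit called, and 56.1% of the calls were higher.

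**Figure D2:**
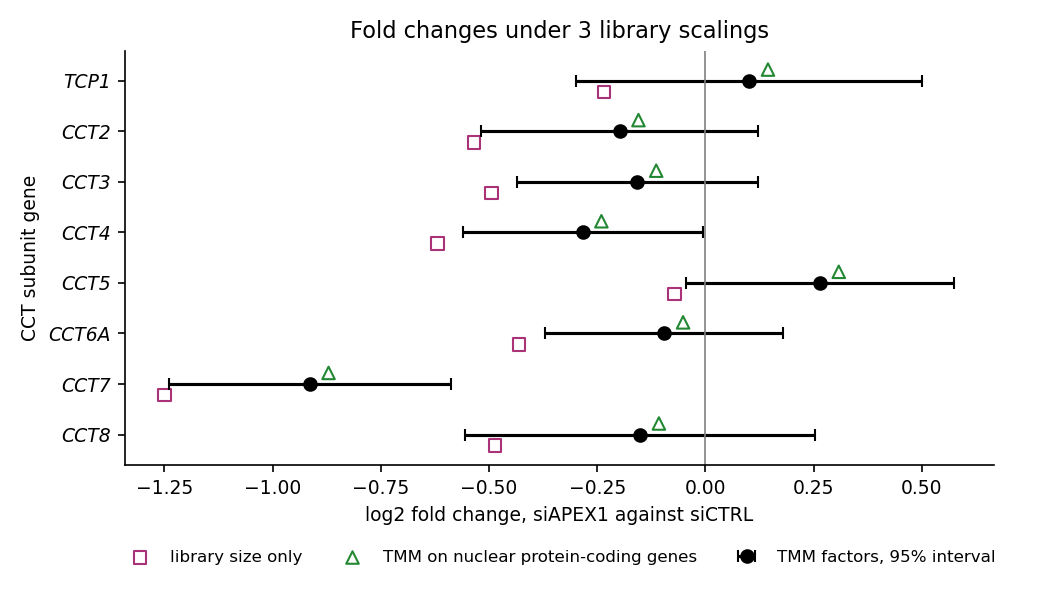
Log2 fold change of each subunit in siAPEX1 against siCTRL, with TMM factors (black, 95% intervals), with library sizes alone (squares) and with TMM factors from nuclear protein-coding genes (triangles). The interval of CCT7, -1.24 to -0.59, lies farthest from 0, and library sizes alone move each subunit to the left.

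The sum and the makeup of the CCT transcripts were compared next. Shares among the 8 subunits need no scaling between libraries, whereas the summed CPM do. The 8 subunits together had 622, 603, 621 and 546 counts in siCTRL and 296, 305, 389 and 346 in siAPEX1. Their summed level was 281 to 306 CPM in siCTRL and 238 to 274 in siAPEX1, and their share of nuclear protein-coding counts was 0.206 to 0.221% and 0.173 to 0.199%. Neither sum overlapped between the groups. Without CCT7 both did: the other 7 subunits summed to 255, 241, 242 and 258 CPM in siCTRL and 217, 219, 258 and 238 in siAPEX1, where replicate 3 was above every siCTRL library. This overlap in CPM holds for TMM factors. With library sizes alone, where 6 subunits were called lower, it was not examined. CCT7 made up 16.6, 15.6, 14.01 and 12.8% of the CCT counts in siCTRL and 9.12, 9.51, 5.91 and 11.6% in siAPEX1, a mean of 14.7% ± 1.66 against 9.03% ± 2.34. It was the only subunit whose share did not overlap between the groups. CCT5 made up 12.4, 10.9, 9.34 and 9.71% in siCTRL and 11.1, 15.7, 13.9 and 17.1% in siAPEX1, and its siAPEX1 replicate 1 lay within the siCTRL range. Shares within a library are tied, so a lower CCT7 share by itself raises the other shares, and CCT5 was not called. The mean shares of the other 6 subunits differed between the groups by -0.79 percentage points for CCT4 to 1.44 for CCT6A. These differences were not stable when 1 library was left out, at -1.58 to 0.25 points for CCT4, -0.44 to 3.90 for CCT6A and -1.16 to 1.57 for CCT3.

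**Figure D3:**
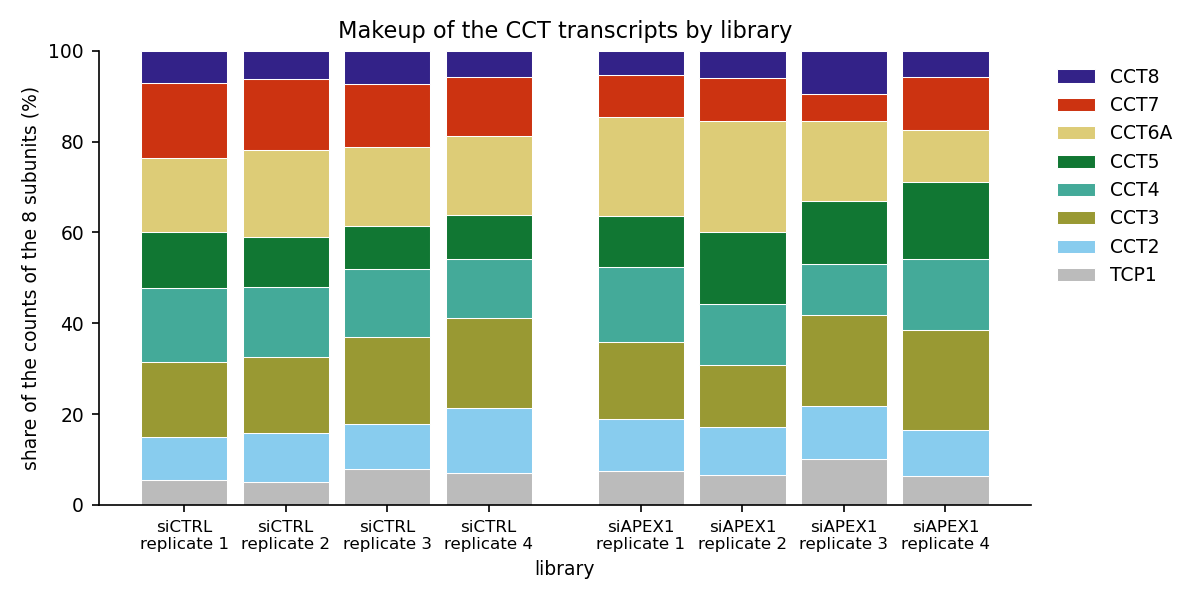
Share of each subunit in the counts of the 8 CCT subunits, in percent, for each library (stacked bars). The CCT7 band is 12.8 to 16.6% of the bar in siCTRL and 5.91 to 11.6% in siAPEX1.

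Ratios of counts between subunits within a library were examined for all 28 pairs, as a description without a test. The ratio did not overlap between the groups for 2 pairs, and both held CCT7. CCT4 had 0.981 to 1.07 counts per CCT7 count in siCTRL and 1.35 to 1.87 in siAPEX1. CCT5 had 0.667 to 0.757 counts per CCT7 count in siCTRL and 1.22 to 2.35 in siAPEX1. CCT7 thus had more counts than CCT5 in every siCTRL library and fewer in every siAPEX1 library. Over the remaining 5 pairs with CCT7 the ranges met or crossed, as for CCT3, at 1 to 1.54 counts per CCT7 count in siCTRL and 1.45 to 3.39 in siAPEX1.

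Levels of different subunits were compared per kilobase of each gene's canonical transcript, which runs from 1847 bases for CCT7 to 3293 for CCT5. In siCTRL the order of the mean levels was CCT3 with 26.7 ± 2.42 CPM per kilobase, CCT7 with 23.3 ± 3.12, CCT6A with 19.8 ± 0.952, CCT4 with 18.4 ± 1.98, CCT2 with 17.1 ± 3.596, CCT8 with 10.4 ± 1.09, CCT5 with 9.42 ± 1.52 and TCP1 with 7.83 ± 1.54. Each neighbouring pair in that order overlapped over the 4 libraries, apart from CCT2 (lowest 14.4) and CCT8 (highest 11.7). In siAPEX1 CCT3 was at 23.7 ± 6.13, CCT6A at 18.5 ± 4.69, CCT4 at 15.2 ± 2.32, CCT2 at 14.7 ± 1.57, CCT7 at 12.5 ± 3.32, CCT5 at 11.3 ± 2.41, CCT8 at 9.28 ± 3.25 and TCP1 at 8.31 ± 2.28 CPM per kilobase, and all neighbours overlapped. CCT7 was thus in place 2 of 8 in siCTRL and in place 5 in siAPEX1, and with the summed length of all annotated exons in place 4 and place 6. By that length CCT4, not CCT3, was in place 1 in both groups. Which transcript of a gene was read is not known from counts per gene. The kit was made for small RNAs, and whether its counts scale with transcript length was not tested.

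Of the genes inside a CCT gene, overlapping it or starting within 1000 bases of its start on the opposite strand, 15 of 17 annotated ones were in the table and 2 passed the filter. Both are box H/ACA small nucleolar RNAs (snoRNAs), which guide pseudouridylation and are cut out of the introns of their host genes, so that 1 primary transcript carries both the snoRNA and the subunit's exons. SNORA20 lies in intron 9 of TCP1 and SNORA15 in intron 10 of CCT6A (chr7:56060470-56060602, plus strand). Both were higher in siAPEX1 while their hosts were not called, and SNORA15 is shown as the example. The sequence is that of GRCh38 at the GENCODE 44 coordinates, and the capitals mark the ACA box 3 bases from the 3′ end.
SNORA15: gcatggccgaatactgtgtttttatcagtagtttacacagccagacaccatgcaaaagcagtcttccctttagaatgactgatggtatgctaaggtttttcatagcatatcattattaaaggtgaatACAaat

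SNORA20 had 3443, 3317, 3373 and 3304 counts in siCTRL and 3417, 2905, 3804 and 3305 in siAPEX1, and 1693, 1571, 1528 and 1788 CPM against 2752, 2308, 2682 and 2568 CPM. Its groups did not overlap in CPM, although the raw counts did. The log2 fold change was 0.65 (SE 0.0850, 95% interval 0.48 to 0.82, edgeR adjusted p = 6.41e-08), and with library sizes alone it was 0.31 (edgeR adjusted p = 0.00263). SNORA15 had 119, 129, 124 and 124 counts in siCTRL and 122, 124, 122 and 129 in siAPEX1, and 58.5, 61.1, 56.2 and 67.1 CPM against 98.3, 98.5, 86.0 and 100.2 CPM. These did not overlap either, with a log2 fold change of 0.66 (SE 0.108, 95% interval 0.44 to 0.88, edgeR adjusted p = 5.44e-06), or 0.32 with library sizes alone (edgeR adjusted p = 0.0175). A rise is what most tested snoRNAs showed, 117 of 155 being called higher (75.5%), and the median over the 155 was 0.50 on the log2 scale.

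Within each library SNORA15 had 1.18, 1.12, 1.148 and 1.31 counts per CCT6A count in siCTRL and 1.88, 1.65, 1.77 and 3.23 in siAPEX1, without overlap. SNORA20 had 101, 111, 68.8 and 86.9 counts per TCP1 count in siCTRL and 155, 145, 97.5 and 150.2 in siAPEX1. Here replicate 3 of siAPEX1 lay within the siCTRL range. The 2 annotated copies SNORA15B-1 and SNORA15B-2 had 0 counts in every library, and SNORA20B had 25 to 61. Reads that STAR places at more than 1 site are not counted by its gene counter. Of the other snoRNAs in these hosts, SNORA29 in TCP1 had 0 counts in every library and SNORA22B in CCT6A had 4 to 13.

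**Figure D4:**
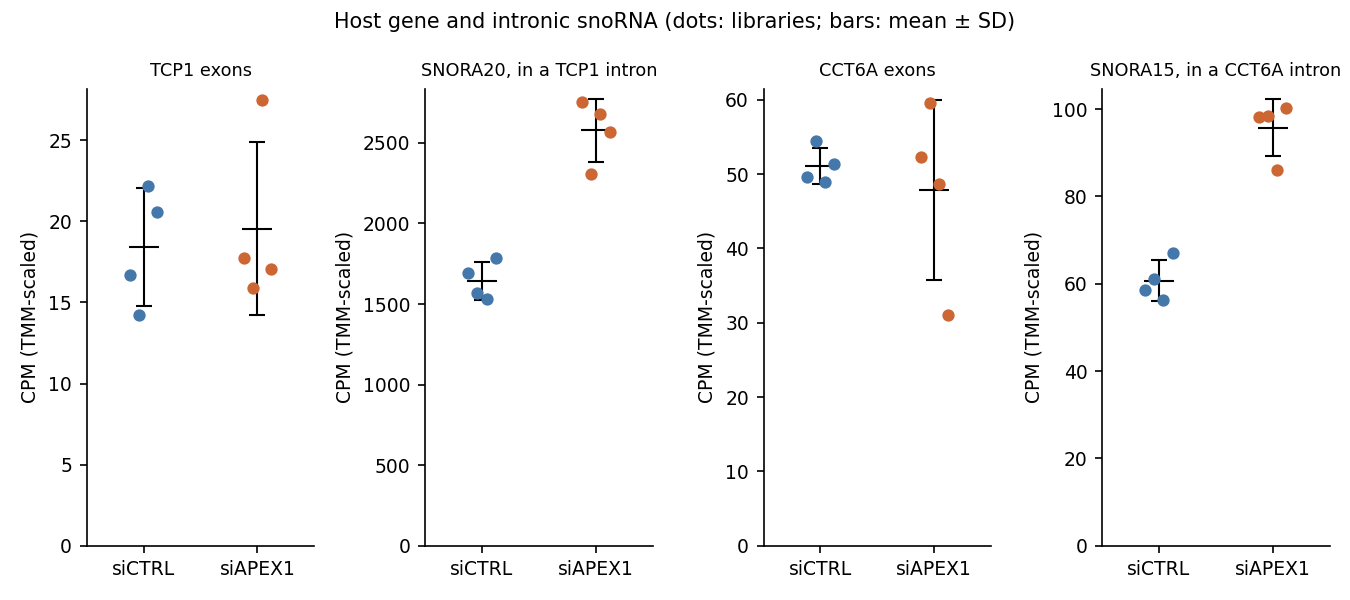
TMM-scaled CPM of TCP1 and its intronic SNORA20, and of CCT6A and its intronic SNORA15, in each library (dots) with the mean ± SD (bars), each panel on its own axis from 0. Both snoRNAs are higher in all siAPEX1 libraries, while TCP1 and CCT6A overlap between the groups.

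The protein-coding genes that start next to a CCT gene on the opposite strand were too low to test. MRPL18, whose start is 109 bases from that of TCP1, had 13, 11, 17 and 10 counts in siCTRL and 7, 10, 4 and 6 in siAPEX1. PRADC1, 181 bases from CCT7, had 0 or 1 count per library. COMMD1 starts 53 bases from CCT4, ATPSCKMT 32 bases from CCT5 and PSPH 81 bases from CCT6A, and their median counts per group were between 2 and 9.5. ACAT2 overlaps the 3′ end of TCP1 on the opposite strand and had 2 to 13 counts. The strand setting of the counting is not given in the sources used here, so reads from such an overlap cannot be assigned to a strand.

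Pseudogene copies of the CCT genes took almost no counts. Of 14 CCT pseudogenes in the table, 11 had 0 counts in every library, both CCT7 pseudogenes among them, and the highest count of any was 2, in the unprocessed copies CCT6P1 and CCT6P3. CCT6B, a paralog of CCT6A known from testis, had 0 to 2 counts per library. MKKS, a chaperonin-like protein of the Bardet-Biedl syndrome complex, was the only other relative tested and had a log2 fold change of 0.12 (SE 0.176, edgeR adjusted p = 0.657). Reads shared with a pseudogene drop out of the counts, so CCT levels may be understated by an amount these counts do not give.

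The APE1 siRNA was also searched for in the CCT transcripts, because an siRNA can act on mRNAs that pair with its seed. CTGGAGT, which pairs with bases 2 to 8 of the siRNA strand given in the methods, was read on the sense strand of each canonical transcript. The other strand of this siRNA and the scramble siRNA were not searched for. CCT8 held 1 match, CCT7 and the other 6 subunits held 0, and 37.1% of 20033 canonical protein-coding transcripts held at least 1. A match is a run of letters and not a site of action.

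Genes that work with CCT were grouped into lists, and each is described by its counts. The cofactors were the 6 prefoldin subunits and 4 phosducin-like or related proteins that bind CCT. Of these 10 genes 7 were tested and 0 were called by edgeR, 0 had an unadjusted p under 0.05, and 0 were called by DESeq2, where edgeR called 31.7% of all tested genes and gave 2203 of the 5368 an unadjusted p under 0.05. Their median log2 fold change was 0.02, with a range from -0.20 for PFDN4 (edgeR adjusted p = 0.316) to 0.47 for VBP1 (edgeR adjusted p = 0.259). Of the tubulin folding cofactors, which take tubulin after CCT, 5 were in the table under their symbols and 4 were tested. TBCA, which binds beta-tubulin, had 90.5, 89.5, 84.3 and 122 CPM in siCTRL and 139, 116, 123 and 135 in siAPEX1, and rose by 0.41 on the log2 scale (SE 0.109, edgeR adjusted p = 0.00300), although siAPEX1 replicate 2 lay below the highest siCTRL library. TBCB, which binds alpha-tubulin, had 20.7, 24.2, 18.1 and 20.6 CPM in siCTRL and 17.7, 10.3, 11.3 and 16.3 in siAPEX1, without overlap, and fell by 0.59 on the log2 scale (SE 0.201, edgeR adjusted p = 0.0213). The call of TBCB was lost without siCTRL replicate 2 or siAPEX1 replicate 2 or 3 (edgeR adjusted p from 0.0724 to 0.118). By DESeq2 only TBCA of this list was called, and with library sizes alone TBCA was at 0.08 (edgeR adjusted p = 0.599).

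Of 26 genes whose proteins are folded by CCT, 14 were tested and 6 were called, 4 lower and 2 higher, against 31.7% of all tested genes in either direction, and DESeq2 called 4, 2 in each direction. The median over the 14 was -0.09 on the log2 scale. Among the alpha-tubulins, a subgroup of the list that was not set apart beforehand, 3 of 4 tested genes were called lower, against 15.8% of all tested genes. TUBA1A had 13.3 to 16.2 CPM in siCTRL and 6.21 to 9.66 in siAPEX1 (log2 fold change -0.998, SE 0.248, edgeR adjusted p = 0.00163). TUBA1C was at -0.77 (SE 0.193, edgeR adjusted p = 0.00166) and TUBA4A at -0.86 (SE 0.281, edgeR adjusted p = 0.0163), and both had groups that did not overlap. TUBA4A was not called by DESeq2 (adjusted p = 0.0873) or by edgeR without siAPEX1 replicate 2 or 4 (adjusted p = 0.0806 and 0.0730). In siAPEX1 TUBA1A had only 12, 8, 9 and 8 counts and TUBA4A 9, 5, 11 and 6. Neither was tested under the filter of at least 10 counts in every library. TUBA1B, the fourth, was at -0.26 (SE 0.156, edgeR adjusted p = 0.216), and the beta-tubulins TUBB and TUBB4B were at -0.09 and -0.03 (edgeR adjusted p = 0.656 and 0.943). The alpha-tubulin genes are nearly identical in their coding parts, so their counts rest on the reads that fit 1 gene alone. GNB2, a G protein beta subunit with WD40 repeats, was lower at -0.61 (SE 0.205, edgeR adjusted p = 0.0198), and GNB1 was at 0.02 (edgeR adjusted p = 0.947). The call of GNB2 was lost by DESeq2 (adjusted p = 0.0947) and by edgeR without siCTRL replicate 4 or without siAPEX1 replicate 1, 2 or 3 (adjusted p from 0.0502 to 0.115). Beta-actin, ACTB, rose by 0.30 on the log2 scale (SE 0.0947, edgeR adjusted p = 0.0118, and 0.0540 without siCTRL replicate 2), and ACTG1, the other cytoplasmic actin, was at -0.09 (edgeR adjusted p = 0.487). ACTB was not called with all genes of at least 1 count (0.21, edgeR adjusted p = 0.237). With at least 10 counts in every library it was not called either (0.22, edgeR adjusted p = 0.0646). STAT3, a transcription factor that CCT folds, was higher in every siAPEX1 library, at 26.1 to 36.2 CPM against 14.7 to 23.1 (log2 fold change 0.71, SE 0.172, edgeR adjusted p = 0.00121). With library sizes alone neither ACTB, at -0.03, nor STAT3, at 0.38, passed the test (edgeR adjusted p = 0.807 and 0.0793). Under that scaling 8 clients were called, 0 higher and 8 lower, so the mixed direction of the clients depends on the scaling.

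For comparison, all 17 other cytosolic and mitochondrial chaperones on the list were tested, and 3 were called, each of them higher, where 15.9% of all tested genes were called higher. HSP90AA1, the inducible HSP90, rose by 0.58 on the log2 scale (SE 0.0921, edgeR adjusted p = 3.29e-06), from 162 to 177 CPM in siCTRL to 227 to 274 in siAPEX1. HSPD1, the mitochondrial chaperonin HSP60, was at 0.33 (SE 0.114, edgeR adjusted p = 0.0247) and the small heat shock protein HSPB1 at 0.28 (SE 0.103, edgeR adjusted p = 0.0345). With library sizes alone the direction of the calls turned, with 1 chaperone higher (HSP90AA1) and 5 lower (DNAJA1, HSP90AB1, HSPA8, TRAP1 and HSPA4), HSPD1 was at -0.01 and HSPB1 at -0.06. Without siCTRL replicate 2 or 3 HSP90AA1 was the only one of the 17 called, and by DESeq2 only HSP90AA1 of the 3 was called. The median log2 fold change of these chaperones was 0.20, beside -0.15 for the CCT subunits, and the difference between the lists was not tested.

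**Figure D5:**
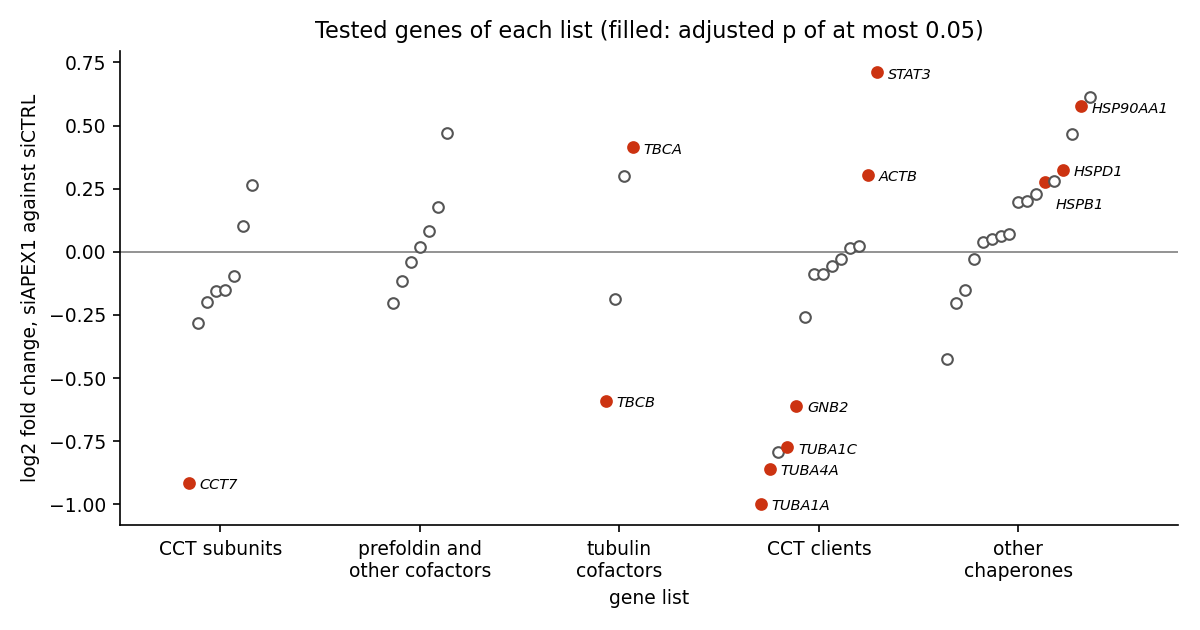
Log2 fold change (siAPEX1 against siCTRL) of the tested genes of each list, 1 circle a gene, ordered within its list, with genes at an edgeR adjusted p of at most 0.05 filled and named. CCT7, at -0.91, is apart from the other 7 subunits, which lie between -0.28 and 0.26.

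Among the 5 genes whose log2 CPM followed the mean log2 CPM of the 8 subunits most closely over the 8 libraries, members left out, were MIR331 with a Pearson r of 0.98, and CCNL2, RNU4ATAC and IDH2 with 0.95 each. The libraries share the group contrast, the scaling and their depth, 42 of the tested genes had an r of at least 0.9, and these values describe 8 points only. These 4 genes were lower in siAPEX1, from -0.29 for RNU4ATAC to -1.17 for CCNL2 on the log2 scale.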

How the data were processed

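Total RNA of A549 cells was read in 8 libraries as single-end reads. Per the labels and the methods, the authors trimmed adapters, aligned reads to GRCh38 with STAR 2.5.3a and deposited the gene counts of its GeneCounts option, whole numbers without normalization; the Ensembl release and the strand column are not given in the sources used here. Columns were assigned by condition and replicate number, and the column of siCTRL replicate 3 carries another library number than its label. Depth was 1348386 to 1949886 counts per library, and intervals cover the spread between libraries.

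Identifiers were matched to GENCODE 44 (57532 of 58302, 770 unmatched). In R 4.3.3, the 5368 genes passing filterByExpr (minimum count 10, total 15) were scaled by TMM, as CPM are counts divided by the scaled library size, and went into the quasi-likelihood test of edgeR 4.0.16 without covariates, with Benjamini-Hochberg adjustment over all of them (95% intervals from the fit, prior count 2 for log2 CPM, common coefficient of variation between replicates 0.0832). The thresholds were an adjusted p of 0.05 and an absolute log2 fold change of 1. The scripts were tested on simulated data. The alternatives were other scaling factors, DESeq2 1.42.0, other filters, the replicate block and leaving out each library. The members and lists were chosen with earlier results of these data known. The text names all 8 members, every listed gene past the adjusted p (listed genes below it are named where their values complete a family or a range), nested or neighbouring genes with a median of at least 10 counts (the other neighbours were chosen after their values were seen), and genes among the 5 most like the members in pattern. Some items are not reported here. Replicates of a group differed by 2.12 to 4.32 times the sampling variance, so no library was taken as deposited more than once.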

Additional observations from a re-analysis of the deposited data

Results flagged for a closer look

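Dixon's test at the 95% level was applied to the 4 libraries of each group for 38 of the values described above (76 groups), and in 7 groups 1 library lay far from the other 3. Chance marks about 1 group in 20. In siAPEX1 replicate 3, TCP1 was at 27.5 CPM (15.9 to 17.7 in the other siAPEX1 libraries), SNORA15 at 86.0 CPM (98.3 to 100.2) and CCT8 at 9.51% of the CCT counts (5.41 to 5.90%). SNORA15 had 3.23 counts per CCT6A count in siAPEX1 replicate 4 and 1.65 to 1.88 in the others. TUBA1A was at 9.66 CPM in siAPEX1 replicate 1 (6.21 to 6.36 in the others), TUBA1C at 28.0 CPM in siCTRL replicate 1 (21.3 to 21.7) and TBCA at 122 CPM in siCTRL replicate 4 (84.3 to 90.5). Without siAPEX1 replicate 3, CCT7 stayed past the threshold, at -0.74 on the log2 scale (edgeR adjusted p = 6.91e-04).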

How the results depend on the processing

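CCT7 was lower and called in all 16 alternatives, at -1.25 to -0.74 on the log2 scale (adjusted p from 8.57e-09 to 6.91e-04), and SNORA20 and SNORA15 were higher and called in all 16. With library sizes alone, the number called was 6 CCT subunits (1 past the fold threshold), 1 CCT cofactor, 1 tubulin cofactor and 6 other chaperones (1 higher and 5 lower). Of the clients 8 were then called, 0 higher and 8 lower, against 2 higher and 4 lower with TMM factors. TCP1 was at -0.23, CCT5 at -0.072 and HSPD1 at -0.0102 with library sizes alone. With at least 10 counts in every library, 2 CCT subunits were called (1 past the fold threshold) and 3 clients. With all genes of at least 1 count, 1 subunit passed the fold threshold, 1 other chaperone was called, and 38.4% of calls were higher, against 50.3% before. With factors from nuclear protein-coding genes 5 other chaperones were called. DESeq2 called 1 tubulin cofactor, 1 other chaperone and 1123 genes in all, against 1702 by edgeR. Leaving out each library gave 1 to 2 CCT subunits (2 without siAPEX1 replicate 1), 0 to 1 past the fold threshold (1 without siAPEX1 replicate 4), 1 to 2 tubulin cofactors (1 without siCTRL replicate 2 or siAPEX1 replicate 2 or 3), 4 to 7 clients and 1 to 4 other chaperones (1 without siCTRL replicate 2 or 3); TCP1 ran from -0.0941 (without siAPEX1 replicate 3) to 0.21 and CCT6A from -0.19 to 0.0908. The CCT7 share differed by -6.56 to -4.68 percentage points over these. Same-numbered libraries did not deviate together more than others (r -0.037 to -0.0035, against -0.040 to 0.036 for unlike numbers). Whether the numbers pair libraries cannot be decided from this, since no libraries known to be paired were at hand for comparison. With the replicate block 1 CCT subunit was called, CCT7 at -0.91 (adjusted p = 2.40e-04), and all genes gave 807 higher and 788 lower. The cause of these shifts was not tested. At 16 to 120 counts per subunit and library, the intervals of the 7 subunits that were not called span -0.56 to 0.57 on the log2 scale.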
